A study of Mus musculus with 10 samples.

Results

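The genes described here encode the core and linker histones measured in polyA RNA-seq libraries of E13.5 mouse heart. They were taken by name from the protein-coding rows of the deposited table, which holds 23195 genes, 16973 of them protein coding. The rule gave 71 members. Of these, 64 are replication-dependent histone genes, whose symbols begin with Hist1h, Hist2h, Hist3h or Hist4h, and 7 are histone variants, namely *H2afx*, *H2afy*, *H2afz*, *H2afv*, *H3f3a*, *H3f3b* and *H1f0*. By family, the replication-dependent class holds 6 H1, 16 H2A, 17 H2B, 12 H3 and 13 H4 genes.

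Nucleosomes wrap DNA around an octamer of H2A, H2B, H3 and H4, and H1 binds the linker DNA between them. Replication-dependent histones are made in S phase, and their mRNAs end in a conserved stem-loop, bound by SLBP, in place of a poly(A) tail. Variant genes such as *H3f3a*, *H3f3b* and *H2afz* are transcribed throughout the cell cycle, usually have introns, and give polyadenylated mRNAs, whose proteins are placed in chromatin outside replication. The libraries were made from RNA captured on oligo-dT beads, a step that selects RNA with a poly(A) tail, so the levels below are those of captured RNA and not of all histone RNA in the heart.

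The study compared 5 wild-type embryos with 5 embryos homozygous for the *Nos1ap* tm1d allele, all male, at embryonic day 13.5 and of the C57BL6/J strain. *Nos1ap* encodes an adaptor protein of neuronal nitric oxide synthase. The tm1d allele lacks exon 4 and was made by recombination with CMV-Cre and ACTB-Flpe, so that all tissues carry the deletion. It is a constitutive null, called *Nos1ap*-/- or null here, and each library is whole heart tissue. In such bulk tissue, fewer cells of a type and less RNA per cell cannot be told apart.

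The table gives each gene's mean normalized count for each genotype, which is made from the 5 libraries' read pair counts after each was scaled by its own size factor. The means have 15 digits, and for most means under 1000 the whole counts of the 5 libraries were recovered from them. No set was found for 274 of 20551 such means in wild type and 209 of 20535 in null. The set was the only possible one for 12763 and 12796 means, and the nearest to equal levels across libraries for 7514 and 7530. Genes with a wide spread between libraries can therefore lack counts. Within a genotype, library 1 is the one with the largest size factor and library 5 the one with the smallest, an order unrelated to replicate numbers in the labels. Depth on genes was estimated at 11328233 to 14023004 read pairs in a library. *Nos1ap* had 124 to 169 counts in the wild-type libraries and 29 to 47 in the null libraries, without overlap. All 8 cardiomyocyte markers and all 5 endothelial markers were abundant in both genotypes, with summed means of 380183 and 388508 for cardiomyocytes in wild type and null. Wild-type library 3 and null library 2 stood apart from the others. In wild-type library 3 the 3 neuronal and glial markers with recovered counts, *Elavl3*, *Elavl4* and *Sox10*, summed to 688 normalized counts, against 70.9 to 92.6 in the other 9 libraries. Over genes with a mean of at least 20, squared differences between null library 2 and the other null libraries averaged 2.54 to 3.02 times those of counting error, against 1.37 to 1.61 among the others. In wild type these values were 2.75 to 3.32 for pairs with library 3, 2.04 to 2.88 for the remaining pairs with library 1, and 1.57 to 1.67 for the rest. No pair of libraries agreed within counting error.

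The annotated 3' ends of the members were read from transcripts. Of the 71 members, 69 were matched by gene identifier to GENCODE release M21 on GRCm38, a later release than the one the authors used, and 46 of these had the same gene version. A histone stem-loop, searched on the sense strand as a run from GG to CC with 6 base pairs in the stem (G with T allowed) and a loop of 4 bases with the conserved T and A positions, was found in the protein-coding transcripts of 42 replication-dependent members and of *H2afx* among the variants. Across all protein-coding genes of the table it was found in 1.64%. A polyadenylation hexamer, AATAAA or ATTAAA, stood in the last 40 bases of a transcript for 17 replication-dependent members and 5 variants, against 83.0% of all protein-coding genes. Both features were present in 13 replication-dependent members and in *H2afx*.

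The stem-loop windows below are shown because they span the class from its most to less abundant members, with the stem-loop in capitals. They are written 5′ to 3′ on the sense strand from GENCODE release M21 transcripts.
Hist1h2ap: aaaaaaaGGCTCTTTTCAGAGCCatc
Hist1h1c: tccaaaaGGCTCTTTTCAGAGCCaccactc
Hist3h2a: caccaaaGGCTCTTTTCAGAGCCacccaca
Hist1h4i: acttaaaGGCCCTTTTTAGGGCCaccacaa
Hist1h3c: aaaaaaaGGCTCTTTTAAGAGCCacctaag
H2afx: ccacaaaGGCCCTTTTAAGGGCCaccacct
The form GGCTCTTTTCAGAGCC was shared by 24 of the 43 members with a stem-loop, and the other 6 forms differed from it in a loop base or in paired stem bases. In *Hist1h2ap* the annotated transcript ends 3 bases after the stem-loop, and in *Hist1h3c* 74 bases after it. In *Hist1h1c* it runs on for 840 bases, in *Hist3h2a* for 1643, in *Hist1h4i* for 330 and in *H2afx* for 822.

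Of the transcripts above, those of *Hist1h1c*, *Hist3h2a*, *Hist1h4i* and *H2afx* end near a hexamer, shown in capitals in the next windows. The windows beside them are from *Hist2h2be*, which has no stem-loop match, and from the variants *H2afz* and *H3f3a*.
Hist1h1c end: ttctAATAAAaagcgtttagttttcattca
Hist3h2a end: aggtatatgcccAATAAAataagagtacgt
Hist2h2be end: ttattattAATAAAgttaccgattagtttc
Hist1h4i end: tctgtttacATTAAAagtattctatgctaa
H2afx end: tgggctaattttATTAAAggatcgtttggt
H2afz end: ggtggataagctcAATAAAggtcatatccc
H3f3a end: tgaaaaatAATAAAagtaccaatagaagaa
The hexamers of *Hist3h2a* and *H2afx* begin 34 and 35 bases before the transcript end, so these windows stop short of it. A hexamer in such a window is a match of letters and not a measured cleavage site. *H3f3b* and *H2afy* had no such match in their annotated ends. Some replication-dependent transcripts that run on past the stem-loop had none either, such as those of *Hist1h1d*, *Hist1h2ac*, *Hist1h1e*, *Hist1h4d* and *Hist1h3d*. A long annotated end thus did not always come with a hexamer.

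The 7 variants were abundant in both genotypes, whereas most replication-dependent genes were close to 0. The least abundant variant, *H2afv*, had a mean of 865 normalized counts over both genotypes, and 52 of the 64 replication-dependent genes had a mean under 10, 50 of them under 5. Summed over each class, variants reached 21119 normalized counts in wild type and 20801 in null, and replication-dependent genes 2281 and 2182. The variant sum was thus 9.26 times the replication-dependent sum in wild type and 9.53 times in null, from 7 genes against 64. The variants took up 0.173% of all counts on genes in wild type and 0.169% in null, and the replication-dependent genes 0.0187% and 0.0177%.

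Levels were compared between genes per kilobase of exon. The median variant had 1321 normalized counts per kilobase in wild type and 1268 in null, and the median replication-dependent member had 2.88 and 3.95. The latter medians lie among genes of few counts. The 52 replication-dependent genes with a mean under 10 summed to 108 normalized counts in each genotype. The order of the variants by this level was *H2afz*, *H3f3a*, *H1f0*, *H3f3b*, *H2afx*, *H2afv* and *H2afy* in wild type, from 2279 for *H2afz* down to 168 for *H2afy*, and it was the same in null, from 2184 to 164. With the length of the longest transcript *H3f3b* stood above *H1f0*, at 1533 against 1439 normalized counts per kilobase over both genotypes. For 6 of the 7, libraries could not be resolved, so spread between neighbours in this order is not known. The median protein-coding gene of the table stood at 44.2 normalized counts per kilobase over both genotypes. *H2afz*, which carries the H2A.Z protein found at promoters, exceeded 98.9% of protein-coding genes in level per kilobase, and *H2afy*, which encodes macroH2A1, exceeded 79.9%.

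**Figure D1:**
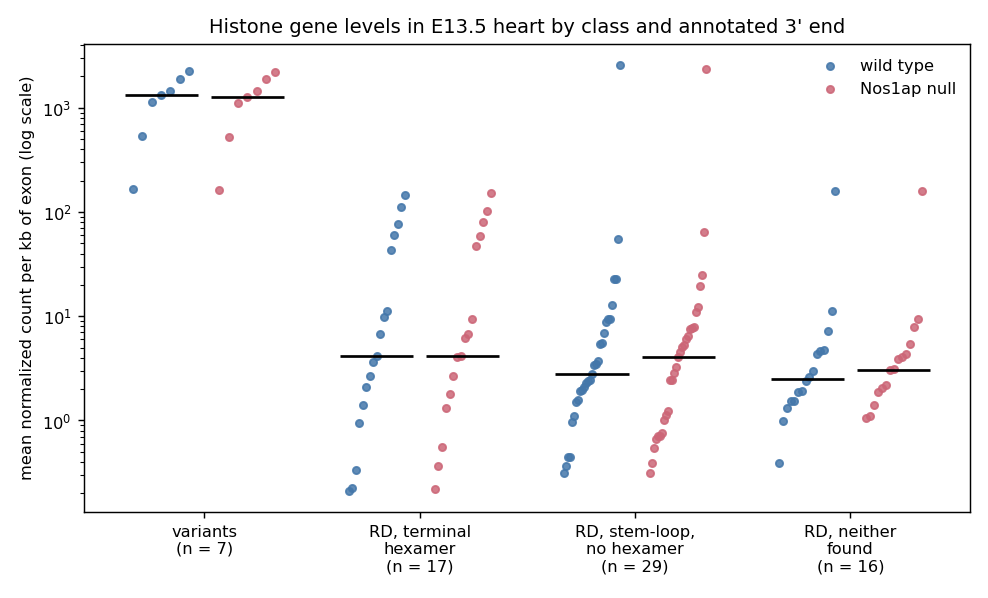
Mean normalized count per kilobase of exon on a log axis for each member in wild type and *Nos1ap* null, by class and annotated 3' end (RD, replication-dependent; bars, medians). The variants have medians of 1321 and 1268, and within the replication-dependent columns 1 gene, *Hist1h2ap*, lies far above the rest at 2454 over both genotypes. Members with a mean of 0 in a genotype are not drawn but count in n and in the medians.

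Replication-dependent genes were then sorted by their annotated 3' end. A mean of 10 was reached by 7 of 17 genes with the terminal hexamer, 4 of 29 with a stem-loop and no hexamer, and 1 of 16 with neither match. The genes past this level were *Hist1h1c*, *Hist3h2a*, *Hist2h2be*, *Hist3h2ba*, *Hist1h4i*, *Hist1h2be* and *Hist1h2bq* with a hexamer, *Hist1h2ap*, *Hist2h2aa1*, *Hist2h2aa2* and *Hist1h2ag* with a stem-loop alone, and *Hist1h2bc* with neither. Medians per kilobase of exon of the 3 sets were 3.85, 2.80 and 2.50 normalized counts over both genotypes, and with the length of the longest transcript they were 6.45, 2.80 and 2.50. These are counts over genes, with no test, and annotated ends may differ from those used in heart.

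*Hist1h2ap*, an H2A gene of the cluster on chromosome 13, stood apart from the rest of its class. Its mean was 1236 normalized counts in wild type and 1130 in null, 54.2% and 51.8% of the whole class. Per kilobase it had 2564 and 2345 normalized counts, above every variant on the scale of exon unions, and 16.2 times and 14.7 times the next replication-dependent gene, *Hist1h2bc*. With the length of the longest transcript it stood below *H2afz*, at 2454 against 3707 over both genotypes. Its annotated transcript of 482 bases (chr13:21833026-21833507, minus strand) ends 3 bases past the stem-loop and has no hexamer in its last 40 bases. Only 7.83% of its 100-base windows are its own, and 92.2% also occur in *Hist1h2ao*, which had means of 2.60 and 3.65 normalized counts. Reads from such copies are divided among genes by RSEM, so the level of *Hist1h2ap* is uncertain as that of 1 gene. Its null mean was 0.915 times the wild-type mean, and with both means over 1000 no spread between libraries could be had for it.

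Among the members, the families differed in the share of normalized counts that came from variants. These are shares of counts, which also depend on transcript length, and not shares of mRNA molecules. Variant genes outside the rule are left out of them. For H3, the 2 variant genes *H3f3a* and *H3f3b*, which encode the same H3.3 protein, summed to 10513 normalized counts in wild type and 10431 in null, and the 12 replication-dependent genes together had 26.8 and 35.5. Variants thus made up 99.7% of the members' H3 counts in both genotypes, and no replication-dependent H3 gene reached a mean of 10. The centromeric H3 gene *Cenpa*, outside the rule, had 1421 and 1390. For H1, *H1f0*, a linker histone associated with cells that leave the cycle, made up 92.5% of the members' counts in wild type and 92.3% in null. Nearly all of the rest among the members was *Hist1h1c*. The H1 variant *H1fx*, outside the rule and not in these shares, was above *Hist1h1c*, at 694 and 663 normalized counts. For H2A, the 4 variants made up 83.2% and 83.8%, with *Hist1h2ap* and *Hist3h2a* as the largest replication-dependent genes. The gap was smaller per kilobase of exon. On that scale the 4 H2A variants summed to 4131 in wild type and 3994 in null, and the replication-dependent H2A genes to 2820 and 2597. The members hold no variant of H2B or H4. The 17 H2B genes summed to 395 and 405 normalized counts, and the 13 H4 genes to 70.5 and 66.7, with *Hist1h4i* as the only H4 gene above a mean of 10.

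**Figure D2:**
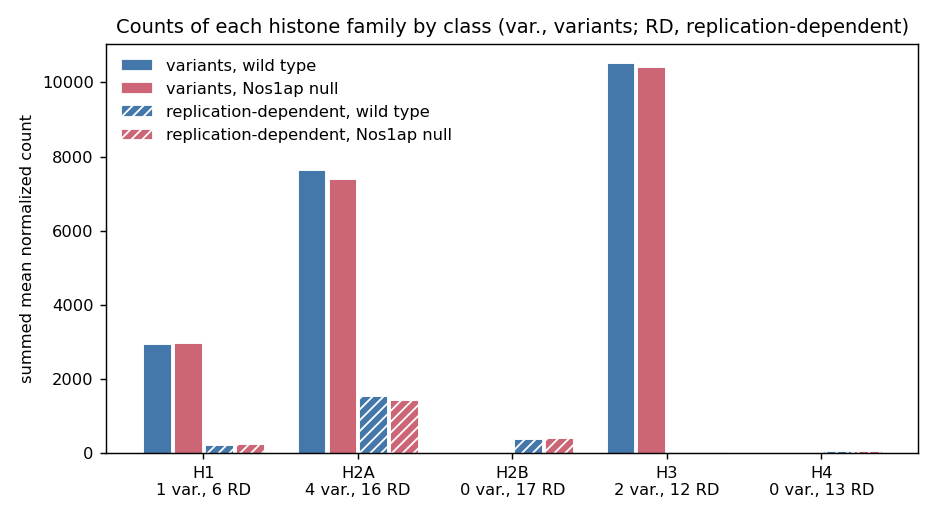
Summed mean normalized count of variants (plain bars) and replication-dependent genes (hatched bars) in each histone family, in wild type and *Nos1ap* null. Among the members, H3 counts come almost wholly from the 2 variants, with 10513 and 10431, and H2B and H4 have no variant. Variant genes outside the rule are not drawn. The bars are sums of group means and carry no error, since libraries could not be resolved for means over 1000.

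The genes known to act on histone mRNA and on histone deposition were well represented, as were genes of S phase. The list of histone mRNA 3' end processing, turnover and transcription held 12 genes, all with a mean of at least 10. *Slbp*, which binds the stem-loop, reached 710 ± 29.2 normalized counts in wild type and 694 ± 45.8 in null (SD, n = 5). *Npat*, the coactivator of histone transcription in S phase, had 418 ± 26.0 and 439 ± 40.6. The most abundant of the list were *Sympk*, *Upf1*, *Cpsf2*, *Cstf2* and *Cpsf3*, with wild-type means from 1932 for *Sympk*, the scaffold of the cleavage complex, to 724 for *Cpsf3*, its endonuclease. The 20 genes of S phase and DNA replication summed to 29595 normalized counts in wild type and 30098 in null, led by *Top2a*, *Mki67*, *Rrm1*, *Ccna2* and *Mcm6*. *Top2a* had 4219 and 4339 and *Mki67*, a marker of cycling cells, 3779 and 3940.

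The study asked which transcripts change in the heart when *Nos1ap* is lost. Of the 12 histone members that could be tested, 0 passed the test. These were 11 replication-dependent genes and *H2afv*, the members with recovered counts and a mean of at least 10, fitted together with all such protein-coding genes by limma after adding 1 to each normalized count and taking log2. At an FDR of 5% the fit called 3 of 10260 genes, 0.0292%, and 0 of the 12 members. At an unadjusted p under 0.05 it called 3.58% of all genes and 0 of the members. With a mean of at least 1 this was 1 of 50 members and 3.67% of all genes, and with no filter on the mean 4 of 64 members and 3.78% of all genes, with 0 members past the FDR in either fit. The 4 were *Hist1h3b*, *Hist1h3g* and *Hist1h2bg*, higher in null, and *Hist1h4d*, lower in null. Libraries of both genotypes overlapped in all 12 members. Over all genes tested they did not overlap for 0.789%, and at that share 12 genes are likely to hold none without overlap. Adjusted p-values of the members were 0.998 by limma with Benjamini-Hochberg adjustment. The fitted log2 difference was above 0 in 7 members and below 0 in 5, and its median was 0.030 against -0.0044 over all genes tested.

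*H2afv*, which encodes a second H2A.Z protein, is the only variant with values for single libraries. It had 964, 889, 786, 849 and 870 normalized counts in wild-type libraries 1 to 5 and 853, 920, 845, 840 and 839 in null libraries 1 to 5. The wild-type libraries enclosed the null libraries, with means of 872 ± 64.6 and 859 ± 34.4 (SD, n = 5). The log2 difference was -0.018, with a 95% confidence interval from -0.12 to 0.082. The other variants have group means alone. *H3f3a* had 6580 in wild type and 6657 in null, *H2afz* 4047 and 3880, *H3f3b* 3933 and 3774. For *H1f0* the means were 2952 and 2964, for *H2afx*, the H2A that is phosphorylated at DNA breaks, 1593 and 1549, and for *H2afy* 1143 and 1119. Across the 7 variants the null mean was 0.959 to 1.01 times the wild-type mean, a difference that has no replicate check for 6 of them.

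*Hist1h1c*, which encodes the linker histone H1.2 and lies on chr13:23738808-23740367, was the most abundant replication-dependent gene with values for single libraries. In wild-type libraries 1 to 5 it had 252, 212, 226, 239 and 214 normalized counts, and in null libraries 1 to 5 it had 207, 278, 213, 249 and 242. Null library 2 was the highest and null library 1 the lowest of all 10, so the null range enclosed the wild-type range. Means were 229 ± 17.1 and 238 ± 28.7 (SD, n = 5), and the log2 difference was 0.050 with an interval from -0.12 to 0.22. Without wild-type library 3 and null library 2 the difference was -0.012.

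*Hist3h2a* and *Hist3h2ba* encode an H2A and an H2B and lie 5151 bases apart on the plus strand of chromosome 11. *Hist3h2a* showed 248, 238, 229, 247 and 229 normalized counts in the wild-type libraries and 230, 244, 192, 212 and 219 in null, where 3 null libraries lay under every wild-type library. Its means were 238 ± 9.24 and 219 ± 19.8 (SD, n = 5), a log2 difference of -0.12 with an interval from -0.27 to 0.025. By the exact two-sided permutation test its unadjusted p was 0.0794, and 5 libraries against 5 allow no p below 0.00794. Its limma p, 0.0987 before adjustment, was the smallest of the 12 members. With each library left out in turn, its log2 difference ran from -0.16 without null library 2 to -0.075 without null library 3. The limma p before adjustment was 0.0325 in the former fit and 0.291 in the latter. After Benjamini-Hochberg adjustment the former was 0.834. *Trim17* begins at the same base on the same strand and shares 29.8% of the windows of *Hist3h2a*, so the counts of both are uncertain. Its neighbour *Hist3h2ba* showed normalized counts of 40.9, 46.5, 61.1, 52.6 and 34.1 in the wild-type libraries and 46.8, 54.3, 44.4, 56.9 and 43.6 in null. The null libraries lay within the wild-type range, and the log2 difference was 0.082 ± 0.16 (SE).

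The H2B genes *Hist1h2bc* and *Hist2h2be*, on chromosomes 13 and 3, were the next in level. *Hist1h2bc* showed normalized counts of 185, 157, 170, 215 and 188 in the wild-type libraries and 174, 215, 158, 178 and 196 in null. Its range was nearly the same in both genotypes, and its log2 difference of 0.010 had an interval from -0.18 to 0.20. *Hist2h2be*, all of whose 100-base windows are its own, showed normalized counts of 101, 136, 93.6, 119 and 117 in the wild-type libraries and 122, 103, 132, 121 and 136 in null. The highest library of both genotypes was at 136, and the log2 difference was 0.12 with an interval from -0.11 to 0.35. *Hist1h4i*, the H4 gene with the most counts, had 49.6, 39.7, 56.0, 36.1 and 39.3 in wild type and 35.1, 54.3, 49.4, 38.7 and 34.9 in null. Its log2 difference was -0.059, with an interval from -0.41 to 0.29.

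**Figure D3:**
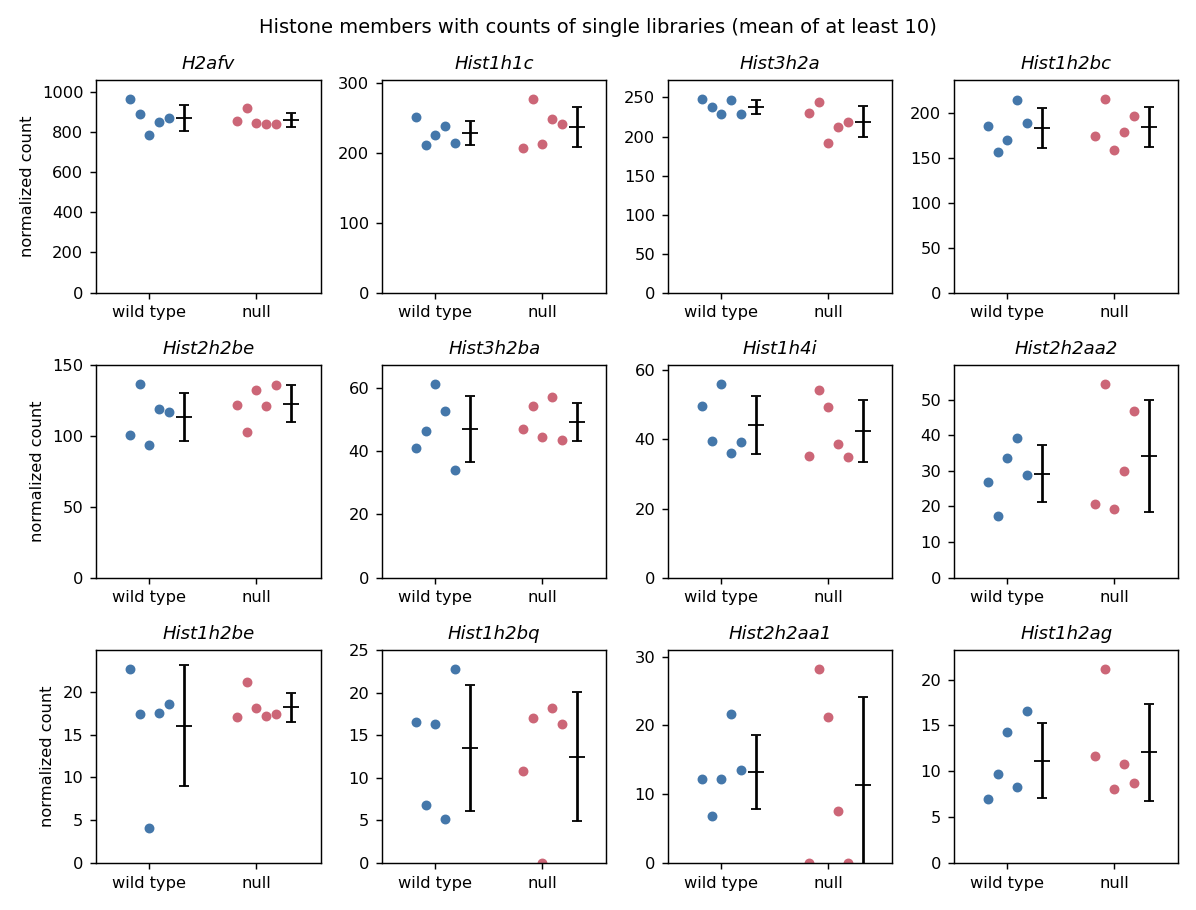
Normalized counts in each library (points) of the 12 members tested, with the mean and SD of 5 libraries beside them, on linear axes that start at 0. Points of wild type and null overlap in every panel, and *Hist1h2bq* and *Hist2h2aa1* have libraries at 0.

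The remaining tested genes had fewer counts and wider intervals. *Hist1h2be*, an H2B gene, showed normalized counts of 22.6, 17.4, 4.07, 17.5 and 18.6 in the wild-type libraries and 17.1, 21.1, 18.1, 17.2 and 17.4 in null. Wild-type library 3 alone lay far below the rest, and without it the log2 difference of 0.34 became -0.060. *Hist1h2ag*, an H2A gene 1097 bases from *Hist1h4i*, had 6.96 to 16.6 in wild type and 8.07 to 21.1 in null, with null library 2 the highest.

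Near-identical gene copies showed libraries at 0 beside libraries with many counts. *Hist2h2aa1* and *Hist2h2aa2* are divergent H2A genes 5220 bases apart on chromosome 3, and all 100-base windows of *Hist2h2aa2* occur in *Hist2h2aa1* and in the overlapping transcript *Gm20634*. *Hist2h2aa1* had 14, 7, 12, 21 and 13 counts in wild type and 0, 28, 21, 7 and 0 in null, and *Hist2h2aa2* had 31, 18, 33, 38 and 28 and then 23, 54, 19, 28 and 43. Of the tested genes *Hist2h2aa1* had the widest interval, from -3.56 to 1.03 around a log2 difference of -1.27. Summed, the pair had 45, 25, 45, 59 and 41 counts in wild type and 23, 82, 40, 35 and 43 in null, with no library at 0 and a log2 difference of 0.024 ± 0.33 (SE). The same held for the H2B genes *Hist1h2bq* and *Hist1h2br*, of which 94.8% of the windows of the first occur in the second. *Hist1h2bq* had 19, 7, 16, 5 and 22 counts in wild type and 12, 17, 0, 17 and 15 in null. Its partner had 0, 6, 0, 17 and 0 and then 0, 2, 7, 5 and 0, so that it was high where *Hist1h2bq* was low in wild-type library 4 and null library 3. Their sum ran from 13 to 22 counts in wild type and from 7 to 22 in null. The part of read assignment between copies in these values was not tested, and 25 of the 62 matched replication-dependent genes have under 50% of windows of their own.

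**Figure D4:**
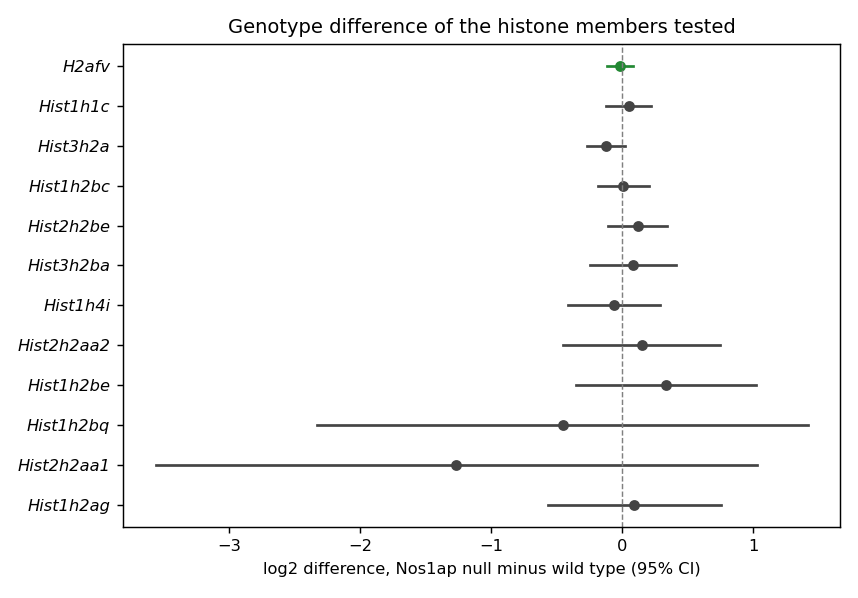
Fitted log2 difference (null minus wild type; points) with its 95% confidence interval (lines) for the 12 members tested, in order of their mean level from the top; *H2afv*, the variant, is green. All intervals include 0. The narrowest is that of *H2afv* and the widest that of *Hist2h2aa1*, which runs from -3.56 to 1.03.

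The 52 replication-dependent genes with a mean under 10 were all recovered, and 45 of them had at least 1 library with 0 counts. Their means were higher in null for 22 and lower for 30. The ranges of the genotypes overlapped in every one, but the share over all genes this low was not computed, so no result is read from it. Summed by library, their normalized counts were 112, 98.7, 97.7, 134 and 98.3 in the wild-type libraries and 119, 139, 78.6, 91.3 and 114 in null. Both sums averaged to nearly the same level, 108 ± 15.7 and 108 ± 23.7 (SD, n = 5). The group means differed more than 2-fold for 15 of them, of which only *Hist1h2bg*, an H2B gene, had a mean of at least 2. *Hist1h2bg* had 4, 0, 2, 2 and 1 counts in wild type and 7, 4, 2, 2 and 4 in null, with overlapping ranges. Its mean was 2.19 times as high in null, with an unadjusted exact two-sided permutation p of 0.0635. *Hist1h2an* and *Hist1h2bp* had 5 counts each in wild type and 0 in null, where 0 counts allow up to 3 over the group for counting error alone.

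The summed class showed the same picture by library. The 63 replication-dependent genes with recovered counts, which leave out *Hist1h2ap*, had summed normalized counts of 1074, 986, 1014, 1134 and 1020 in the wild-type libraries and 993, 1229, 934, 1031 and 1075 in null. Null library 2 was the highest and null library 3 the lowest, and the means were 1046 ± 58.8 and 1052 ± 112 (SD, n = 5), a ratio of 1.01. Without wild-type library 3 and null library 2 the ratio was 0.957. All 9 erythroid markers used were present, with a summed mean of 211109 normalized counts in wild type and 292657 in null, and have no values for single libraries. Their part in the histone sums was not tested.

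**Figure D5:**
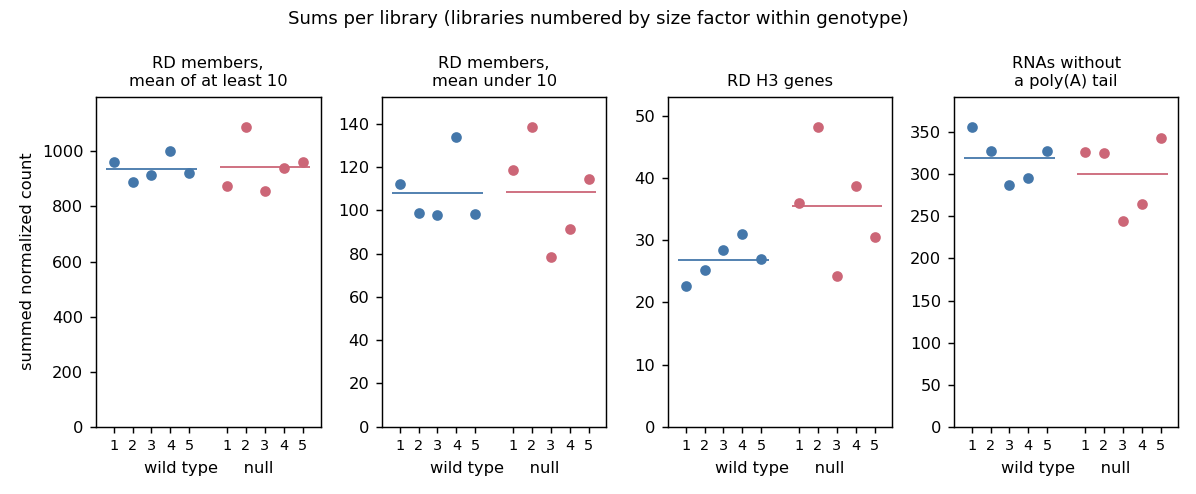
Summed normalized counts in each library (points; lines, means of 5) of replication-dependent (RD) genes with a mean of at least 10 (*Hist1h2ap* left out), those with a mean under 10, the 12 RD H3 genes, and the RNAs without a poly(A) tail. Null library 2 has the highest value of the 3 histone sums, and the 2 genotypes overlap in every panel.

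No gene of the other lists was called, beside 3 of 10260 genes, 0.0292%, over all genes tested. At that share a list of this size is likely to hold no called gene. In the list of 3' end processing, turnover and transcription, 0 of 10 genes tested were called in either direction, with a median log2 difference of 0.017. Group means of the 5 most abundant differed by 0.014 to 0.057 on the log2 scale, and those of all 12 genes by -0.34 to 0.069. The lowest was *Zfp473*, with 20.1 normalized counts in wild type and 15.9 in null. Of 18 histone chaperones and factors of variant deposition, 8 were tested and 0 called, with a median of -0.019. *Anp32e*, which removes H2A.Z, and *Srcap*, which deposits it, had the highest means, 3395 and 2763 normalized counts in wild type and 3383 and 2839 in null, followed by *Nasp*, *Ssrp1* and *Atrx*. For S phase and DNA replication 0 of 9 tested genes were called, with a median of 0.0057, and group means of all 20 genes differed by -0.050 to 0.061 on the log2 scale. The remaining variant genes outside the rule had *Cenpa*, the centromeric H3, at 1421 and 1390, *H1fx* at 694 and 663, *H2afy2* at 647 and 634 and *H2afj* at 223 and 223, with 0 of 3 called. *H3f3c*, listed as no protein-coding gene, had 40.1 and 35.2, and *H1foo* had 0.174 and 0.202.

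RNAs that carry no poly(A) tail were summed beside the histones. The 108 listed, which are small nuclear and nucleolar RNAs and RNAs such as *Rn7sk*, summed to 357, 327, 287, 296 and 328 normalized counts in wild type and 327, 325, 244, 264 and 343 in null. Their means were 319 ± 27.9 and 301 ± 43.6 (SD, n = 5), and genotypes overlapped. Null library 2, the highest for the sum of the 63 replication-dependent genes with recovered counts, was not the highest here. The reason was not tested. Of this list 5 RNAs had a mean of at least 10, led by *Rn7sk* at 98.0 ± 22.1 and 68.2 ± 21.1 normalized counts (SD, n = 5), and none entered the fit, which was limited to protein-coding genes. The 4 germ cell markers listed summed to 30.1 ± 9.15 and 25.8 ± 10.8, with *Prm1* near 0, and *Hist1h1t*, the testis linker histone, had 1 count in each genotype.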

How the data were processed

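PolyA RNA-seq libraries of E13.5 hearts, 5 wild-type and 5 *Nos1ap* null, were grouped by the titles of their labels. Per the submitters' notes and methods, reads were trimmed (Trimmomatic 0.36), aligned with STAR within RSEM 1.2.31 to GENCODE M10 (GRCm38), and compared with DESeq 1.24.0. The signal values used are the mean normalized counts of each genotype that the authors deposited. The authors' columns of fold changes and p-values were not used. Columns of other single samples used: 0.

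Members and lists were chosen with earlier results of these data known. For group means under 1000, sets of 5 whole counts were searched in a reduced lattice and taken where the set was unique or at most 0.01 others were expected as near. The search was tested on simulated data. RSEM estimates are fractional, so these counts are rounded estimates. The planned search for motifs in the genome past transcripts was not done, since transcripts alone were used. limma 3.58.1 (R 4.3.3; trended, robust) was fitted to log2(normalized count + 1) of protein-coding genes with a mean of at least 10, Benjamini-Hochberg adjusted, all tests two-sided. Exact permutation tests covered 252 arrangements and were not adjusted. Labels do not say whether embryos shared litters. Named genes are members whose mean reached 10, those of a mean of 2 or more whose genotypes differed over 2-fold or did not overlap, and the 5 most abundant genes of each list; others named, such as *Slbp*, *Npat*, *Hist1h2an* and *Hist1h2bp*, were chosen after their values were seen. Lengths are exon unions of GENCODE M21. Alternatives changed pseudocount, filter, genes, scaling, test, libraries, lengths and the counts accepted. Some planned cell type markers are not reported here. P-values measure only the spread between these libraries.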

Additional observations from a re-analysis of the deposited data

Results flagged for a closer look

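In 54 groups of 5 libraries, the tested members and the histone sums in each genotype, 4 values lay far from the other libraries of their group by Dixon's criterion, and chance gives about 1 in 20. *H2afv* had 920 normalized counts in null library 2, above 839 to 853 in the other null libraries. *Hist1h2be* had 4.07 in wild-type library 3 and 21.1 in null library 2. *Hist1h2ag* had 21.1 in null library 2. No explanation was tested.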

How the results depend on the processing

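The number of histone members past an FDR of 5% was 0 in the reported fit and under each of 21 alternatives. Genes past an FDR of 5% numbered 3 in the reported fit, 3 to 4 when 1 library was left out, and 1 with unique sets of counts only. The fit with unique sets tested 2983 genes, 7 of them histone members. With the length of the longest transcript, the ratio of median levels per kilobase of variants to replication-dependent genes was 462 in place of 416. Of 124 values of single members under other alternatives than leaving out 1 library, 119 kept their sign and 5 did not. The latter were -0.0066 for *Hist1h2bc* with voom weights and, without wild-type library 3 and null library 2 (an alternative chosen after seeing the data, like the summing of near-identical copies), -0.012 for *Hist1h1c*, -0.072 for *Hist1h2bc*, -0.11 for *Hist1h2be* and -0.018 for *Hist1h2ag*. Leaving out 1 library gave log2 differences of -0.055 to 0.019 for *H2afv*, -0.0083 to 0.097 for *Hist1h1c*, -0.048 to 0.069 for *Hist1h2bc*, -0.023 to 0.18 for *Hist3h2ba*, -0.15 to 0.030 for *Hist1h4i*, -0.044 to 0.32 for *Hist2h2aa2*, -0.060 to 0.50 for *Hist1h2be*, -0.72 to 0.35 for *Hist1h2bq* and -0.12 to 0.24 for *Hist1h2ag*, so these have no settled direction. The cause was not tested. *Hist3h2a* and *Hist2h2be* kept their sign under every alternative run. So did *Hist2h2aa1* where it was fitted alone, but summed with *Hist2h2aa2* the difference was 0.024. The ratio of the recovered replication-dependent sums was 0.964 to 1.03 when 1 library was left out and 0.957 without wild-type library 3 and null library 2. No paired analysis was possible because the group means carry no replicate numbers of the labels. For means over 1000 the spread between libraries is unknown, and 52 replication-dependent genes had a mean under 10 and were fitted only under a lower or no filter.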

Other observations

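The replication-dependent H3 genes summed to 22.6, 25.2, 28.5, 30.96 and 26.9 normalized counts in wild-type libraries 1 to 5 and to 36.0, 48.3, 24.2, 38.7 and 30.5 in null libraries 1 to 5, with overlap. Most of this gap came from 3 genes that were chosen after their values were seen. *Hist1h3b* had 1 count over the wild-type libraries and 16 over the null libraries, which were 3, 1, 5, 0 and 7. *Hist2h3c1* had 2 and 16 counts, of which 9 were in null library 2, and *Hist1h3g* had 1 and 11. Of their 100-base windows, 43.4% are their own for *Hist1h3b*, 62.9% for *Hist1h3g* and 0% for *Hist2h3c1*. All windows of *Hist2h3c1* also occur in *Gm20634*. The counts of these single genes are thus uncertain, and the part of read assignment was not tested. The other 9 H3 genes of the class summed to 26.0 and 26.8 normalized counts. With no filter on the mean, limma gave *Hist1h3b* a log2 difference of 1.52 ± 0.50 (SE), with a p of 0.00613 before Benjamini-Hochberg adjustment and 1.00 after it, and *Hist1h3g* one of 1.12 ± 0.49 (SE), with 0.0349 and 1.00. As these genes were picked for their difference, the p-values are a description.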
